A study of Mus musculus with 36 samples.

Results

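The Fos family of bZIP transcription factors comprises 4 genes in the mouse, Fos, Fosb, Fosl1 and Fosl2, which were chosen by name and were all present among the 26709 genes of the expression table. Cortical neurons (CNs) of CD-1 mouse embryos, taken at embryonic day 15 and pooled over embryos, were grown until day 7 in vitro. Their firing was then stopped with TTX (1 µM), which closes sodium channels, and AP-5 (100 µM), which shuts NMDA receptors, beginning 2 h before stimulation. Brain-derived neurotrophic factor (BDNF, 10 ng/ml), a ligand of the TrkB receptor, or potassium chloride (KCl, 55 mM), which depolarises the membrane, was then given for 1, 6 or 10 h. Unstimulated controls remained in AP-5 and TTX for 3, 8 or 12 h in all, so every control carried both blockers. For the stimulated groups 2 h in the blockers is recorded. In comparisons with controls, the stimulus and the time in blockers therefore cannot be told apart. RNA-seq and ATAC-seq, a measure of open chromatin, each gave 2 libraries in each of 9 groups, which are named A and B here (for ATAC-seq the letters are only names). The study describes them as biological replicates, and whether each came from a separate preparation is not given in the sources used here, so the p-values below measure the spread between these libraries.

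Fos proteins bind DNA only as partners of a second bZIP protein, most often of the Jun family, and the pair is known as AP-1. Fos and Fosb are immediate early genes, whose transcription in neurons starts within minutes of calcium entry or of MAP kinase signalling and usually fades within hours, because both the promoter response and the mRNA are short-lived. Fos and Fosb carry strong activation domains, whereas Fosl1 (also called Fra-1) and Fosl2 (Fra-2) lack a comparable one and are often described as slower and longer lasting members of the family.

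In the mm10 build, Fos lies at chr12:85473890-85477273 on the plus strand, Fosb at chr7:19302696-19310051 on the minus strand, Fosl1 at chr19:5447547-5455946 on the plus strand and Fosl2 at chr5:32135801-32157842 on the plus strand. The stretches before the Fos and Fosb starts are shown because these were the genes with the highest fold changes in the family. They were read 5′ to 3′ on the strand of the gene, from 320 to 21 bases before the first annotated start for Fos (chr12:85473570-85473869) and over the 300 bases before it for Fosb (chr7:19310052-19310351). The Fos window was moved upstream by 20 bases so as to hold its CArG box. Capitals mark 4 motifs searched on both strands, namely the AP-1 site TGANTCA, the short cAMP response element (CRE) TGACG, the full CRE (TGACG followed by TCA), and the CArG box, the core bound by serum response factor.
Fos promoter: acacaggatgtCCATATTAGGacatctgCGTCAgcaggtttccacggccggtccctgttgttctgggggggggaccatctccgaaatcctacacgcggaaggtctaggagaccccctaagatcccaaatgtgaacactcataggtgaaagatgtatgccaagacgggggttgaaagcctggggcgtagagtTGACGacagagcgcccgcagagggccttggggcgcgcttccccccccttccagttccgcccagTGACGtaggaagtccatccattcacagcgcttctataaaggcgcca
Fosb promoter: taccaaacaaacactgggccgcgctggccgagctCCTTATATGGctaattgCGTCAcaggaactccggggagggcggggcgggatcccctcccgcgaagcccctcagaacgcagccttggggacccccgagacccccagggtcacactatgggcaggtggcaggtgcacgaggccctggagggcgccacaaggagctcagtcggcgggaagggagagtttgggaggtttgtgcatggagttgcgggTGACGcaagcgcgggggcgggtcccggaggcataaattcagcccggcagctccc

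Each promoter held 1 CArG box, CCATATTAGG beginning 309 bases before the Fos start and CCTTATATGG beginning 266 bases before the Fosb start. Among the 300 bases before the first start of 21938 protein-coding genes, 1.57% held such a box. These shares can be set beside the Fosb window alone, because the Fos window was moved to hold its box, which begins outside the stretch counted for all promoters. The short CRE was found 3 times in the Fos window and 2 times in the Fosb window, while 21.1% of all such promoters held at least 1. Those nearest to the starts began 66 and 54 bases before them. The full CRE (2.03% of promoters) and the AP-1 site (7.16%) were in neither window. These matches are letters only, and binding was not measured at them here.

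RNA depth was 8.51 to 36.7 M reads per library (median 11.6 M) and ATAC depth 1.24 to 6.24 M reads in peaks (median 3.55 M), the shallowest being a KCl 6 h ATAC library. The recovered RNA reads of the 2 libraries of a group differed by a chi-square per degree of freedom of 27.7 at KCl 6 h and of 2.02 to 7.83 in the other 8 groups. In every RNA library the neuronal markers were high, with a summed normalised count of 42211 to 51820 over 8 genes, against 73.7 to 117 over 5 microglial and 25.2 to 83.1 over 3 endothelial ones. Astrocyte markers (5 genes, 7733 to 13948), progenitor markers (5 genes, 7104 to 12478), oligodendrocyte lineage markers (5 genes, 4280 to 7191) and fibroblast and pericyte markers (4 genes, 2333 to 3776) were measured in every library as well. In RNA from mixed cells, fewer cells of a type and less RNA per cell cannot be told apart. The astrocyte sum was 10029 to 12921 in controls, 11950 to 13948 after 1 h of KCl and 7733 to 8930 after 6 h of KCl. The oligodendrocyte lineage sum was 5757 to 6204 in controls, lower after 1 h of KCl (4280 to 4844) and higher after 6 h of KCl (6852 to 7191), and the fibroblast and pericyte sum was 2824 to 3327 in controls, 3543 to 3776 after 1 h of KCl and 2333 to 2468 after 10 h. The part of these sums in the results was not tested.

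**Figure D1:**
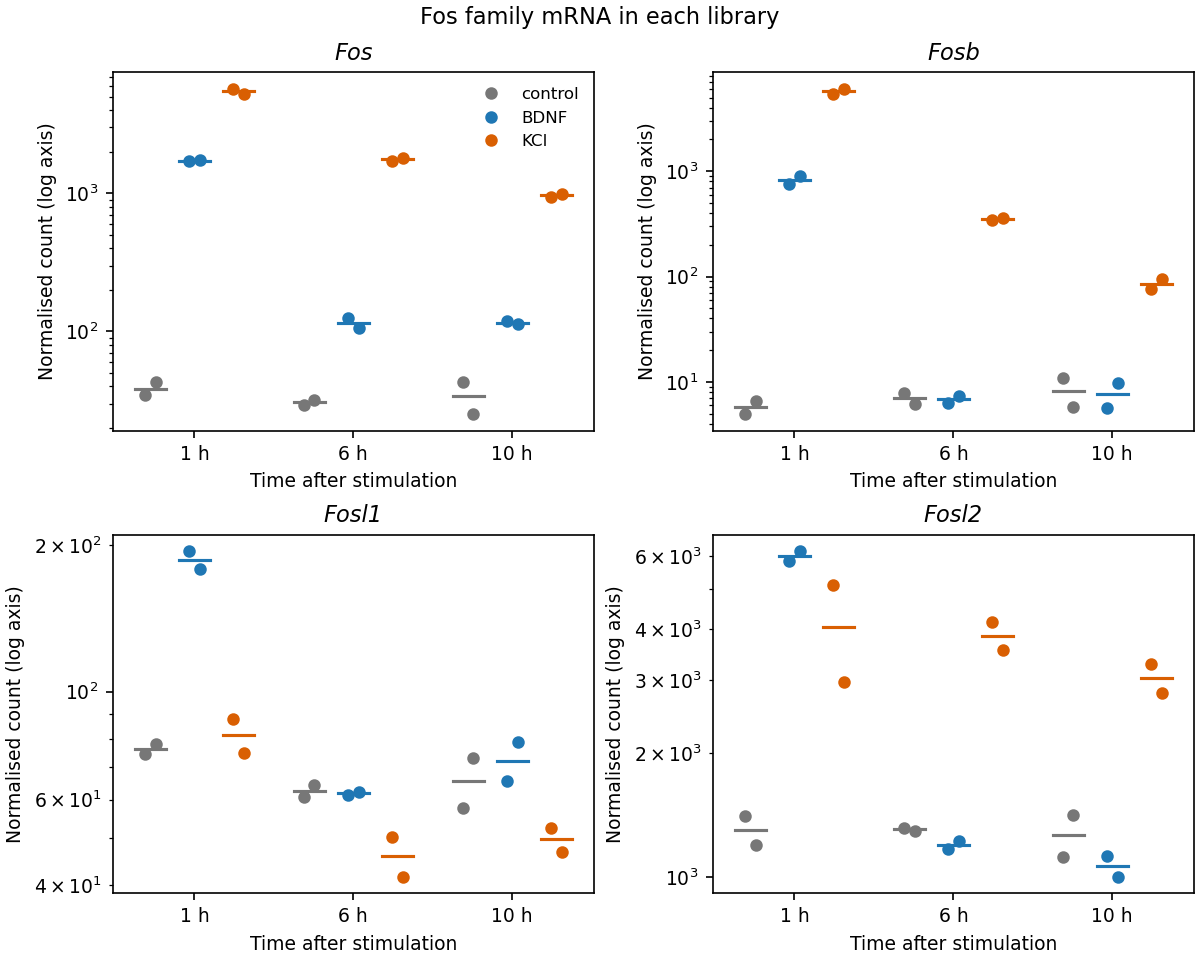
Normalised RNA counts (log axis, with a separate scale for each gene) of the 4 Fos family members in each library by time after stimulation, with points for libraries and bars for group means. Fos and Fosb were highest after 1 h of KCl, Fosl1 and Fosl2 after 1 h of BDNF, and the KCl 1 h libraries of Fosl2 stood at 5101 and 2971.

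Fos, the founding member, was low in silenced neurons. Its normalised count, which is the number of reads divided by the size factor of the library, was 34.5 and 42.8 in the controls of 1 h, 29.4 and 32.1 in those of 6 h and 43.3 and 25.1 in those of 10 h. After 1 h of BDNF it stood at 1715 and 1738, and after 6 h and 10 h it had come down to 125 and 105 and to 119 and 113. The KCl libraries held 5742 and 5274 (1 h), 1727 and 1809 (6 h) and 948 and 995 (10 h). All 12 stimulated libraries lay above all 6 controls. In the order of group means, KCl 6 h (1727 and 1809) and BDNF 1 h (1715 and 1738) overlapped, as did BDNF 10 h and 6 h, and the other neighbours were apart.

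Fosb, a close relative of Fos whose truncated splice form accumulates on repeated stimulation, was near the limit of detection in controls, at 4.93 and 6.58, 7.83 and 6.22, and 10.8 and 5.71 at the 3 times, from 5 to 15 reads per library. BDNF brought it to 754 and 901 at 1 h, but to only 6.31 and 7.32 at 6 h and 5.65 and 9.84 at 10 h, inside the range of the controls. Under KCl it reached 5421 and 6088 at 1 h and was still 344 and 360 at 6 h and 75.8 and 94.8 at 10 h. No KCl library overlapped the controls at any time, and in the order of group means the only neighbours that overlapped were BDNF 10 h, the controls and BDNF 6 h.

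Fosl1 was measured at 74.5 and 77.9, 60.7 and 64.3, and 57.7 and 73.1 in controls. It was 195 and 179 after 1 h of BDNF, 61.3 and 62.2 after 6 h and 65.6 and 78.7 after 10 h. The KCl libraries held 87.7 and 74.8 (1 h), 50.1 and 41.7 (6 h) and 52.6 and 46.8 (10 h), the last 4 libraries lying below every control. In the order of group means BDNF 1 h stood apart at the top, KCl 1 h, BDNF 10 h, the controls and BDNF 6 h overlapped in turn, and so did KCl 10 h and KCl 6 h. Of the 2033 exon bases of Fosl1, 1163 (57.2%) are shared with Ccdc85b on the opposite strand, and whether the counting used strand is not given in the sources used here, so reads of the 2 genes cannot be told apart.

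Fosl2 was the most abundant member in controls, with 1409 and 1196, 1318 and 1293, and 1119 and 1415 normalised counts. The BDNF libraries held 5862 and 6191 (1 h), 1167 and 1223 (6 h) and 1125 and 1002 (10 h). For KCl the values were 5101 and 2971 (1 h), 4148 and 3555 (6 h) and 3282 and 2801 (10 h). Every KCl library was thus above the controls for the whole 10 h, whereas the BDNF libraries of 6 h and 10 h lay around or below them. Among neighbours in the order of means, KCl 1 h and 6 h overlapped, as did the controls and BDNF 6 h.

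Against the 6 controls, all 4 members rose after 1 h of BDNF, in a comparison in which 40.4% of the 16209 genes tested were called in either direction (limma on log2 of the normalised count + 1, Benjamini-Hochberg adjusted p below 0.1 over all genes, 7 groups fitted together). The log2 difference was 6.72 ± 0.22 (SE) for Fosb (adjusted p = 3.58e-16), 5.63 ± 0.15 for Fos (7.06e-17), 2.23 ± 0.15 for Fosl2 (3.27e-08) and 1.45 ± 0.15 for Fosl1 (1.15e-07). The median over the 4 genes was 3.93, beside 0.00 over all genes. By the ratio of mean counts, Fosb was 118 times and Fos 50.0 times the control level.

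After 6 h and 10 h of BDNF only Fos was called, higher by 1.73 ± 0.15 (adjusted p = 1.49e-08) and 1.74 ± 0.15 (2.19e-08), while 43.3% and 40.6% of all genes were called. Fosb (-0.003 and 0.12), Fosl1 (-0.13 and 0.09) and Fosl2 (-0.11 and -0.28) did not pass the test. Without either KCl 1 h library, which for Fosl2 were far apart, the common spread shrank and the Fosl2 difference at 10 h was called (adjusted p = 0.0203 in both cases). The median over the members was -0.06 at 6 h and 0.10 at 10 h.

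After 1 h of KCl 3 of the 4 members rose, Fosb by 9.52 ± 0.22 (adjusted p = 8.67e-19), Fos by 7.30 ± 0.15 (9.6e-19) and Fosl2 by 1.60 ± 0.15 (6.61e-07), with 54.7% of all genes called. In mean counts this was 820 times the control for Fosb and 160 times for Fos. Fosl1 differed by 0.26 ± 0.15 (adjusted p = 0.168). Leaving out either KCl 1 h library put the Fosl2 difference at 1.21 or 1.99, called in both cases.

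At 6 h and 10 h of KCl all 4 members were called, 3 higher and Fosl1 lower, beside 66.5% and 57.2% of all genes. The KCl 6 h libraries were those that differed most from each other over all genes. Fos was higher by 5.66 ± 0.15 and 4.80 ± 0.15, Fosb by 5.50 ± 0.22 and 3.46 ± 0.22, and Fosl2 by 1.58 ± 0.15 and 1.24 ± 0.15. Fosl1 was lower, at -0.55 ± 0.15 (adjusted p = 0.00311) and -0.44 ± 0.15 (0.0192). The 10 h difference of Fosl1 lost its call without the KCl 10 h library B (-0.36, adjusted p = 0.170) and against the controls of 10 h alone (-0.38, 0.109).

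Ccdc85b, the gene that overlaps Fosl1, was 296 to 365 in controls. It was higher than controls by 0.84 after 1 h of BDNF (adjusted p = 3.12e-05), by 0.48 after 6 h (0.00598) and by 0.43 after 10 h (0.0138), and by 0.43 after 6 h of KCl (0.00689) and 0.56 after 10 h of KCl (0.00127). The KCl 6 h library B, at 354, lay inside the control range. Both genes were thus called higher after 1 h of BDNF, Ccdc85b alone was called at 6 h and 10 h of BDNF, and the calls went opposite ways at 6 h and 10 h of KCl. The share of its reads in the Fosl1 values was not tested.

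Controls of 6 h and 10 h were also set against controls of 1 h, in a fit with 9 groups. Fos differed by -0.31 and -0.21, Fosb by 0.25 and 0.41, Fosl1 by -0.28 and -0.23 and Fosl2 by 0.01 and -0.05. None of the 4 members was called (unadjusted p of 0.0892 to 0.969), and 0.0% and 0.0% of all genes were called at the 2 times by limma, with 164 and 181 genes at an unadjusted p below 0.05, and 0 genes were called by edgeR or DESeq2 on the recovered reads.

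**Figure D2:**
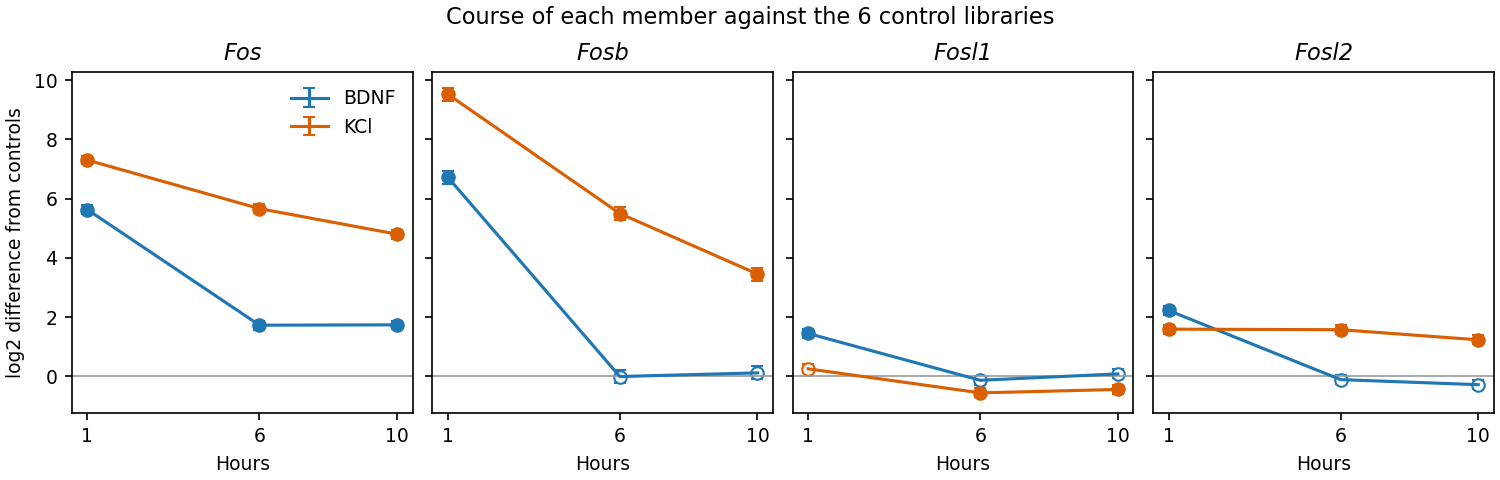
The log2 difference of each member from the 6 controls at 1, 6 and 10 h of BDNF or KCl, with bars for the SE of the fit and filled points for called differences. The BDNF lines were back at 0 by 6 h except that of Fos (1.73), and the KCl lines of Fos, Fosb and Fosl2 were still above 0 at 10 h (4.80, 3.46 and 1.24).

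The test of KCl against BDNF at the same time called all 4 members at 1, 6 and 10 h, in comparisons that called 42.8%, 57.3% and 45.0% of all genes. At 1 h the family split in pairs. Fosb (2.80 ± 0.27, adjusted p = 3.27e-08) and Fos (1.67 ± 0.18, 2.97e-07) were higher under KCl, and Fosl1 (-1.19 ± 0.19, 2.38e-05) and Fosl2 (-0.63 ± 0.19, 0.0156) were lower. The Fosl2 difference rested on 1 library, at -0.24 (adjusted p = 0.199) without the KCl 1 h library B and -1.02 (5.61e-06) without the library A.

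By 6 h Fosl2 had moved to the KCl side, with 1.68 ± 0.19 at 6 h (adjusted p = 3.28e-06) and 1.51 ± 0.19 at 10 h (1.77e-05). Fosb was higher under KCl by 5.50 ± 0.27 at 6 h, 45.3-fold on the log2 scale of the test, and by 3.34 ± 0.27 at 10 h, and Fos by 3.93 ± 0.18 and 3.06 ± 0.18. Fosl1 stayed lower under KCl, by -0.43 ± 0.19 (0.0600) and -0.53 ± 0.19 (0.0290). These 2 Fosl1 calls were weak. That of 6 h was lost without the BDNF 6 h library A (-0.44, adjusted p = 0.145) or B (-0.41, 0.164) or the KCl 6 h library B (-0.29, 0.303), and with DESeq2 on the recovered reads (-0.42, 0.183), and that of 10 h without the library B of BDNF (-0.40, 0.212) or of KCl (-0.44, 0.157).

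Between 1 h and 6 h of BDNF all 4 members fell (33.6% of all genes were called), with log2 differences of -6.73 for Fosb, -3.90 for Fos, -2.33 for Fosl2 and -1.58 for Fosl1. From 6 h to 10 h none changed by the test (differences of -0.17 to 0.22, 0.216% of all genes called), and all 4 were lower at 10 h than at 1 h (33.9% of genes). The called falls under BDNF thus all lay before 6 h.

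Under KCl the called falls of Fosb and Fos were spread over both intervals, and that of Fosl1 lay before 6 h. From 1 h to 6 h Fosb (-4.02, adjusted p = 1.01e-10), Fos (-1.64, 2.56e-07) and Fosl1 (-0.81, 0.000864) fell, among 59.6% of genes called. From 6 h to 10 h Fosb (-2.04, 5.44e-05) and Fos (-0.86, 0.00314) fell further, among 22.5%. Fosl2 differed by -0.02 ± 0.19 between 1 h and 6 h and by -0.34 ± 0.19 between 6 h and 10 h, neither called. Its first value turned to a called rise of 0.37 (adjusted p = 0.0269) without the KCl 1 h library A and to a called fall, at -0.41 (0.0169), without the library B, and the later fall was called without either (0.0374 and 0.0373). From 1 h to 10 h Fosb, Fos and Fosl1 were called lower (54.5% of genes), and Fosl2 was at -0.36 ± 0.19 (adjusted p = 0.128). This last difference was called by edgeR (-0.42, 0.0733) and DESeq2 (-0.41, 0.0764) on the recovered reads and without the KCl 1 h library B (-0.75, 0.000162), and stood at 0.03 without the library A.

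The difference between these 2 courses was itself tested. The change from 1 h to 6 h was less negative under KCl than under BDNF for all 4 members, by 2.70 ± 0.38 for Fosb, 2.31 ± 0.26 for Fosl2, 2.26 ± 0.25 for Fos and 0.77 ± 0.26 for Fosl1 (48.1% of genes called). For the change from 1 h to 10 h, Fosl2 (2.14 ± 0.26), Fos (1.39 ± 0.25) and Fosl1 (0.67 ± 0.26, adjusted p = 0.0519) were called and Fosb was not (0.54 ± 0.38, 0.294), with 42.2% of genes called. For Fosb the log2 change by 10 h was -6.60 with BDNF and -6.07 with KCl, from 1 h levels of 827 and 5754.5. At 10 h Fosb stood at 7.74 under BDNF, near its control mean of 7.01, and at 85.3 under KCl. Fosl1 had no called rise after 1 h of KCl from which to fall. Without the BDNF 10 h library B the Fosb difference reached 0.89 (0.0998). The Fosl1 call was lost without the library A of BDNF 1 h (0.61, adjusted p = 0.145), BDNF 10 h (0.54, 0.175) or KCl 10 h (0.59, 0.132), without the library B of KCl 1 h (0.55, 0.162), and with DESeq2 on the recovered reads (0.64, 0.149).

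Levels of different genes were set side by side per kb of exon, using exon unions of 2352 bases for Fos, 6243 for Fosb, 2033 for Fosl1 and 9680 for Fosl2. In controls the 4 members together made 183 ± 11.9 normalised counts per kb (SD, n = 6), of which Fosl2 held 73.0%, Fosl1 18.3%, Fos 8.12% and Fosb 0.627%. One hour of BDNF brought the sum to 1581 ± 41.8 (n = 2), with 46.4% Fos, 39.4% Fosl2, 8.37% Fosb and 5.81% Fosl1. Under KCl the sum was 3720 ± 225 at 1 h, with 62.9% Fos and 24.9% Fosb against 11.1% Fosl2 and 1.07% Fosl1.

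At 6 h and 10 h of BDNF the sum was back at 204 ± 1.42 and 196 ± 5.69, with Fosl2 at 60.6% and 56.1% and Fos at 24.0% and 25.1%. At the same times of KCl it was 1229 ± 19.8 and 766 ± 20.8, with 61.2% and 54.0% for Fos against 32.4% and 41.0% for Fosl2. The lengths of Fosb and Fosl2 include transcripts that are not protein-coding. With the exons of protein-coding transcripts alone (3782 and 6537 bases) the Fosb level after 1 h of KCl was 1522 in place of 922 per kb, and that of Fosl2 in controls 198 in place of 133. The order of Fos and Fosl2 turned with these lengths at 1 h of BDNF, with 819 per kb for Fos and 922 for Fosl2, and was close to even at 10 h of KCl (461 and 465), so neither can be called the more abundant at these points.

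**Figure D3:**
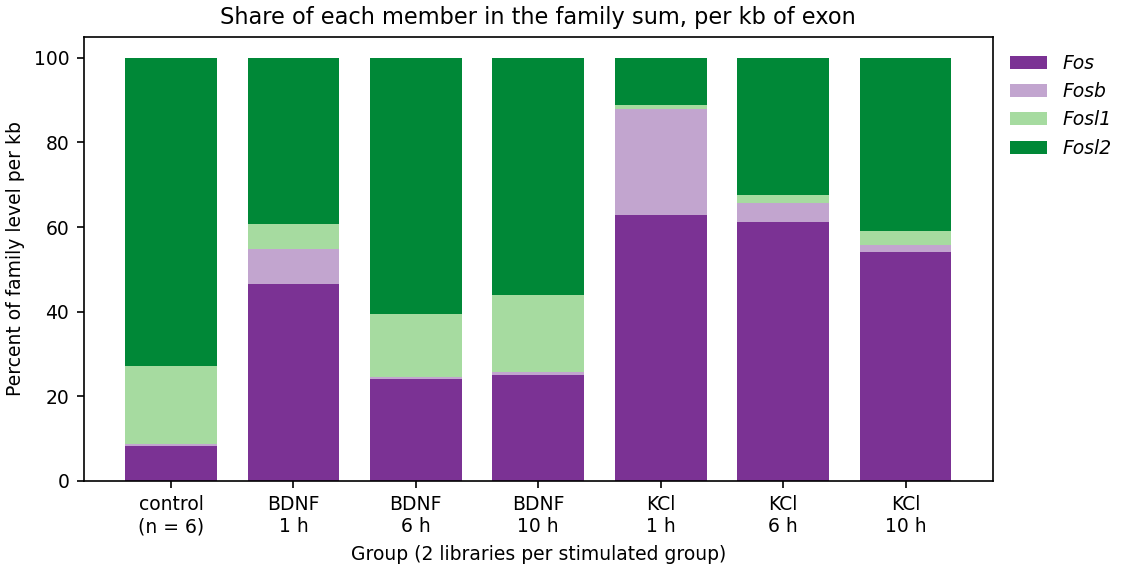
Stacked bars of the share (percent) of each member in the summed Fos family level per kb of exon, as the mean over libraries of each group (6 controls, 2 libraries in each stimulated group). Fosl2 held 73.0% in controls and Fos 62.9% after 1 h of KCl.

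In a ratio between members the scaling of a library cancels, apart from the 1 that was added. For each pair the log2 ratio (each level per kb + 1) was compared between KCl and BDNF by an exact permutation test that exchanged the stimuli within each time (216 arrangements, two-sided, smallest possible p 0.00926), adjusted over the 6 pairs. Fosb gained on Fosl1 by 4.14 and on Fosl2 by 2.58 under KCl, Fos gained on Fosl1 by 3.58 and on Fosl2 by 2.03, and Fosl1 lost against Fosl2 (-1.56), as means over the 3 times, each with an exact p of 0.00926 and an adjusted p of 0.0111. All 12 stimulated libraries bear on each of these values, with 2 libraries per stimulus at each time. The sizes of the Fosb gains on Fosl1 and Fosl2 depended on the 1 that was added. They were 4.38 and 2.81 with 0.5 added, and 4.59 and 3.02 for values not divided by length, at the same exact p.

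Fos against Fosb gave the smallest difference, -0.55 (exact p = 0.0648, adjusted p = 0.0648), with values of -1.12 (1 h), -0.86 (6 h) and 0.33 (10 h). The last value depended on the 1 that was added, which is about the size of the Fosb level at 6 h and 10 h of BDNF (1.09 and 1.24 per kb). It was 0.01 with 0.5 added and -0.28 for values not divided by length, and in the test of single genes the KCl gain at 10 h was 3.34 for Fosb and 3.06 for Fos. The mean over the 3 times was -0.78, -0.99 and -0.73 with 0.5 added, without division by length and with coding lengths (exact p of 0.0370, 0.0185 and 0.0370). The adjusted p passed 0.1 without the library A of BDNF 6 h (-0.49, exact adjusted p = 0.102) or BDNF 10 h (-0.47, 0.185), or without the library B of KCl 1 h (-0.50, 0.102) or KCl 10 h (-0.51, 0.120).

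The genes whose log2 levels followed each member most closely over the 18 RNA libraries were taken from 6129 genes that spanned at least 1 log2 unit between group means. They were Maff (Pearson r = 0.988), Atf4 (0.986) and Insig1 (0.967) for Fos, and Phf13 (0.982), Cpeb2 (0.971) and Ppp1r15a (0.962) for Fosb. Fosl1 went with Jun (0.949), Zfp948 (0.932) and Mpp2 (0.926), and Fosl2 with Hdac5 (0.976), Per1 (0.967) and Rem2 (0.960). Within the family, r was 0.947 for Fos and Fosb, 0.893 for Fosb and Fosl2, 0.882 for Fos and Fosl2, and 0.199 to 0.400 for Fosl1 with each of the others. These are descriptions, since the libraries share the same 9 groups and were scaled together.

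All 3 Jun genes, which encode the partners of Fos proteins, rose after 1 h of either stimulus, when 40.4% (BDNF) and 54.7% (KCl) of all genes were called. Junb, which is an immediate early gene like Fos, had the largest change, from 73.8 ± 9.82 in controls (SD, n = 6) to 1871 ± 58.9 after BDNF (log2 difference 4.66, adjusted p = 8.46e-17) and 3310 ± 391 after KCl (5.47, 6.21e-18), and it was called higher at every later time (1.70 to 2.95). Jun was higher by 1.36 after 1 h of BDNF and by 0.34 after 1 h of KCl, and lower at 6 h and 10 h of KCl (-0.59 and -0.29) where Fosl1 was lower too. At 6 h of BDNF it was higher by 0.20 (adjusted p = 0.0506), a call lost without the BDNF 6 h library B (0.12). Jund was higher by 1.00 and 0.29 at 1 h. Its KCl values were weaker, that of 1 h being lost without the library A (0.25, adjusted p = 0.205) and that of 10 h (0.34) without its library A (0.20, 0.274) or against the controls of 10 h alone (0.20, 0.231).

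Among 10 other bZIP genes of the ATF, BATF and small MAF families, 7 were tested, as Batf, Batf2 and Batf3 had a mean count under 10. Of the 7, 5 were higher and 1 lower after 1 h of BDNF, 4 and 1 after 1 h of KCl, and 6 and 1 after 6 h of KCl, in comparisons that called 40.4%, 54.7% and 66.5% of all genes. Maff, a small MAF protein without an activation domain, went from 32.3 ± 6.65 to 285 ± 3.46 after 1 h of BDNF (3.13) and 597 ± 80.1 after 1 h of KCl (4.19) and was called at all 6 points. Atf3, a stress-induced bZIP factor, differed by 3.33 and 2.14 at 1 h, and at 6 h and 10 h it was called under KCl (1.16 and 0.91) and not under BDNF (0.20 and 0.41). For Atf3, KCl minus BDNF was called at 1 h (-1.19) and 6 h (0.96) but not at 10 h (0.50, adjusted p = 0.127). Mafk was higher by 0.96, 0.80 and 0.66 under KCl, and by 0.35 after 1 h of BDNF (adjusted p = 0.0613). That BDNF call was lost against the controls of 1 h alone (0.34, adjusted p = 0.205) and on leaving out some single libraries (0.28 to 0.39). The median of the list at 6 h was 0.07 for BDNF and 0.58 for KCl, beside 0.00 and 0.01 for all genes.

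Of 13 genes that act upstream of Fos transcription, all were tested, and 5 to 6 were called higher and 2 to 4 lower in each of the 6 comparisons, beside 40.4% to 66.5% of all genes. Srf, the serum response factor that binds CArG boxes, went from 734 ± 30.3 in controls to 2301 ± 38.5 after 1 h of BDNF (1.65, adjusted p = 2.4e-14) and 1561 ± 94.3 after 1 h of KCl (1.09, 2.32e-11) and was higher at every time. Mrtfa, a coactivator of SRF, was higher by 0.28 after 1 h of BDNF and lower after 1 h of KCl (-0.23), then higher by 1.02 and 0.62 at 6 h and 10 h of KCl. Rps6ka5, which encodes the histone kinase MSK1, fell by 1.32 and 0.95 at 6 h and 10 h of BDNF and by 0.71 and 0.57 at those times of KCl. The medians of the list lay between -0.06 and 0.10, with all-gene medians of -0.01 to 0.01.

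Of 4 genes for proteins that bind AU-rich elements and set mRNA stability, Zfp36 (tristetraprolin) was higher after 1 h of BDNF (25.6 ± 6.37 to 51.4 ± 9.02, 1.01, adjusted p = 0.00849) and of KCl (100 ± 7.62, 1.97, 5.99e-06). At 10 h of KCl it was higher by 0.57 (adjusted p = 0.0978), a call lost with DESeq2 on the recovered reads (0.60, 0.135). It was higher by 0.93 at 6 h of KCl. That value was not called without the KCl 6 h library B (0.64, adjusted p = 0.148), nor was the BDNF 1 h value without its library A (0.83, 0.148). Zfp36l1 was lower under BDNF (-0.37, -0.45 and -0.53) and not called under KCl (-0.09 to 0.16), and KCl minus BDNF was called at 6 h (0.61) and 10 h (0.46) but not at 1 h (0.28, adjusted p = 0.161). Its 1 h value under BDNF was lost without either BDNF 1 h library (adjusted p of 0.143 and 0.124), and that of 6 h without the library A (0.101). Elavl1, which encodes the stabilising protein HuR, was higher by 0.42 after 1 h of BDNF and lower after 10 h of KCl (-0.33, adjusted p = 0.000704). In the list, 2 genes were higher after 1 h of either stimulus, with 1 lower after BDNF and none after KCl (40.4% and 54.7% of all genes called), and the medians over the 6 comparisons were -0.38 to 0.29.

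Of 9 genes often cited as AP-1 targets, 5 passed the minimum, and Timp1, Plaur, Mmp3 and Mmp9 did not. Scg2, which encodes the granin secretogranin II, was higher at every time of both stimuli. It went from 902 ± 126 in controls to 3591 ± 70.0, 6624 ± 250 and 5746 ± 27.4 at 1, 6 and 10 h of BDNF (2.00, 2.89 and 2.68) and to 2058 ± 708, 5351 ± 726 and 6501 ± 494 under KCl (1.16, 2.57 and 2.86). Penk, the precursor of enkephalin, was higher by 0.52, 0.69 and 0.93 under BDNF and 0.56, 0.92 and 1.13 under KCl, the 1 h values being lost without the library A of BDNF (0.43, adjusted p = 0.179) or of KCl (0.27, 0.258) and against the controls of 1 h alone (0.34 and 0.38). Ccnd1, which encodes cyclin D1, was higher by 0.40 and 0.36 at 1 h and 6 h of BDNF, calls lost without single BDNF libraries of those times, and was not called under KCl (-0.19 to 0.01). Of the 5, 3 were called higher and 2 lower after 1 h of BDNF, and 2 higher and none lower after 1 h of KCl, beside 40.4% and 54.7% of all genes, with list medians of -0.06 to 0.40.

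Chromatin accessibility was measured over 58177 ATAC-seq peaks, of which 29 had their centre within 50 kb of a start of a Fos family transcript and were tested, 9 for Fos, 11 for Fosb, 8 for Fosl1 and 1 for Fosl2. Values are counts scaled by the LOESS offsets of the fit, and tests are edgeR's quasi-likelihood test with adjusted p below 0.1 over 56383 peaks. Of the 29 peaks, 5 were called after 1 h of BDNF (17.3% of all peaks tested), 2 at 6 h (10.6%) and 1 at 10 h (9.36%). KCl gave 4 called peaks after 1 h (8.35%) and 1 each after 6 h (7.5%) and 10 h (7.87%), and KCl against BDNF gave 1, 2 and 1 (14.8%, 3.62% and 1.99%). With 29 peaks these counts are too small to tell whether the neighbourhood of the family differed from all peaks in its share of calls.

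At the Fos start, the peak chr12:85473407-85474127, whose centre is 123 bases upstream, held 90.1 to 134 scaled counts in the 6 controls (median 103). It was 158 and 118 after 1 h of BDNF and 122 and 114 after 1 h of KCl, within or just above that range. No comparison called it (0.36 ± 0.17 after 1 h of BDNF, adjusted p = 0.147, and 0.14 ± 0.17 after 1 h of KCl, 0.685). A smaller peak inside Fos, chr12:85474476-85474819, with 16.4 to 40.1 in controls, was not called either (0.01 ± 0.34 and 0.53 ± 0.31 at 1 h of BDNF and KCl, adjusted p = 0.993 and 0.346). At the Fosb start, chr7:19310003-19310487 held 83.0 to 113 in controls, 103 and 83.0 after 1 h of BDNF and 95.1 and 94.6 after 1 h of KCl, with no call in any comparison (-0.17 ± 0.18 and -0.13 ± 0.18). The starts of the 2 genes with the highest mRNA fold changes were thus inside peaks in the silenced controls and had no called change in accessibility at the times measured.

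A second Fosb peak, chr7:19308189-19308995, lies inside the gene with its centre 1008 bases from the nearest start. It held 148 to 188 in controls and 123 and 121 after 1 h of KCl, where it was called lower at -0.48 ± 0.14 (adjusted p = 0.0257), below every control while the mRNA was at its highest. With BDNF at 1 h it was 177 and 130 (-0.16 ± 0.14). The KCl call was lost without the library A (-0.49, adjusted p = 0.188) or B (-0.46, 0.253) of KCl 1 h.

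The Fosl2 and Fosl1 starts did change. At Fosl2, chr5:32134999-32136145, centred 229 bases upstream of the start, held 266 to 301 in controls (median 276). It was 384 and 423 after 1 h of BDNF, 358 and 316 after 6 h and 296 and 306 after 10 h, and was gained at 1 h by 0.53 ± 0.10 (adjusted p = 7.67e-06) and at 6 h by 0.26 ± 0.10 (0.0941). Under KCl it was 338 and 356, 320 and 360, and 284 and 251, and was called at 1 h alone (0.31 ± 0.10, 0.0448). The BDNF 1 h gain was called under each scaling tried and without each library in turn. That of BDNF 6 h was not called with TMM scaling (0.22, adjusted p = 0.203) or DESeq2 size factors (0.19, 0.310), nor without any of 10 libraries (0.17 to 0.35). The KCl 1 h gain was not, at 0.13 (adjusted p = 0.467) with TMM scaling and 0.12 with DESeq2 size factors (0.539), or without the library A (0.35, 0.182) or B (0.27, 0.369) of KCl 1 h.

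At Fosl1, chr19:5447589-5447978 lies over the first bases of the gene and was a small peak, with 3.90 to 24.7 in controls, 30.0 and 41.5 after 1 h of BDNF and 26.7 and 34.8 after 1 h of KCl. It was gained by 1.24 ± 0.36 (adjusted p = 0.00866) and 1.03 ± 0.36 (0.0796) at 1 h and was not called at 6 h or 10 h (0.13 to 0.54). KCl and BDNF did not differ there by the test at 1 h (-0.22 ± 0.43, 0.810), although the Fosl1 mRNA was called higher after BDNF alone. The BDNF gain was lost without the BDNF 1 h library B (0.99, 0.282) and against the controls of 1 h alone (0.85, 0.272). The KCl gain was lost without the library A (1.2) or B (0.82) of KCl 1 h or any of 4 control libraries (adjusted p of up to 0.191), the lowest control (A of 6 h, 3.90) among them. It was also lost against the controls of 1 h alone (0.63, adjusted p = 0.528) and with the DESeq2 test (1.05, 0.132).

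**Figure D4:**
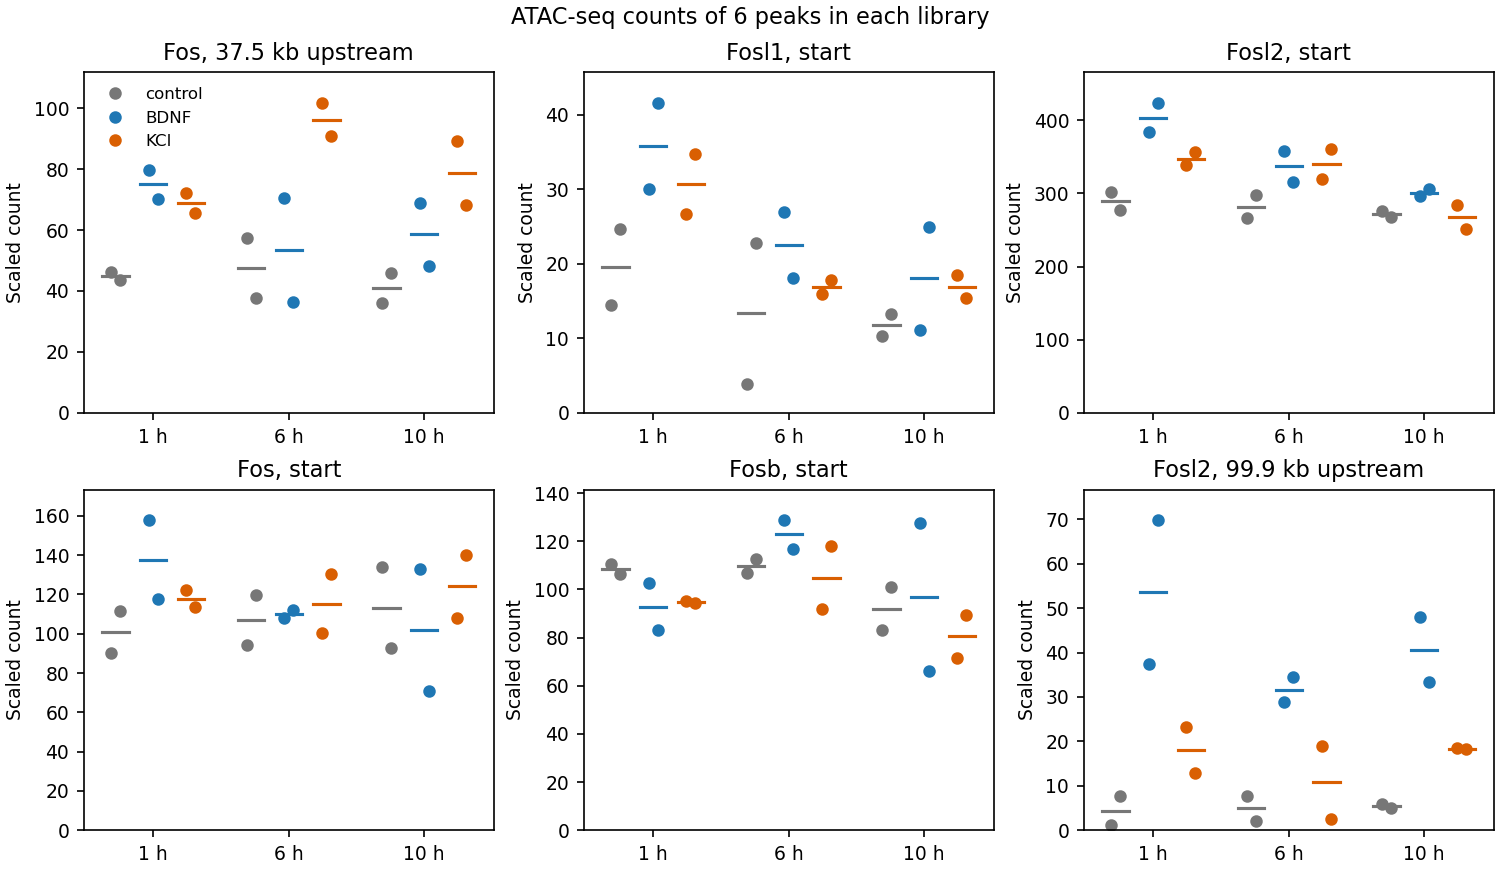
Scaled ATAC-seq counts of 6 peaks near Fos family members in each library by time, with bars for group means and each vertical axis starting at 0. The peaks at the Fos and Fosb starts overlapped between groups, and that at the Fosl2 start was highest after 1 h of BDNF (384 and 423, against 266 to 301 in controls).

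Further stretches of 300 bases, 3 in number, are given on the plus strand of mm10 because their accessibility changed. The first is the middle of the Fosl2 start peak, which lies before the transcript (chr5:32135423-32135722). The others are the middle of a Fos peak 37.5 kb upstream (chr12:85436198-85436497) and of a Fosl2 peak 99.9 kb upstream (chr5:32035791-32036090). Capitals mark the same 4 motifs.
Fosl2 start peak: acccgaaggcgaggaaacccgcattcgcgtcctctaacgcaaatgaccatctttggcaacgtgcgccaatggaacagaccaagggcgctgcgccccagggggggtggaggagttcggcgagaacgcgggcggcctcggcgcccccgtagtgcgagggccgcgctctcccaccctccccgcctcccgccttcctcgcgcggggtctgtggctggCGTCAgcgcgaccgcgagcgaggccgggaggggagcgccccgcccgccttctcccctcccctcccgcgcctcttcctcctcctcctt
Fos distal peak: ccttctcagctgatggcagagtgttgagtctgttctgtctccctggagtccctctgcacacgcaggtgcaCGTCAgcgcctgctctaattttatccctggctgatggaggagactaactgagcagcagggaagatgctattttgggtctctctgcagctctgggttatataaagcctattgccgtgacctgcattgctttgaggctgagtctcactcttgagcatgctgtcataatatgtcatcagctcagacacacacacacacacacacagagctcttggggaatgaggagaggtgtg
Fosl2 distal peak: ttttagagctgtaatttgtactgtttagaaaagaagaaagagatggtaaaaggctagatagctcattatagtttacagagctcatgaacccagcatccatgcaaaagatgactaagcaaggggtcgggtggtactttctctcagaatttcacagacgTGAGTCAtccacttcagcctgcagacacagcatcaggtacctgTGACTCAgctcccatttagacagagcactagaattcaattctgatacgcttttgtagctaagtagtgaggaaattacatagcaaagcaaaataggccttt

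The Fosl2 distal stretch held 2 AP-1 sites, TGAGTCA and TGACTCA. Of the central 300 bases of all 58177 peaks, 16.4% had at least 1. The whole peak of 379 bases held 3. Whole peaks at the Fos, Fosl1 and Fosl2 starts held 1 each, and those at the Fosb start and at the Fos distal site held 0. A share over all whole peaks was not taken, nor one over gained peaks. The Fosl2 distal peak was chosen after its gain was seen, and the paper reports bZIP as the most enriched motif in gained peaks. The AP-1 sites in that peak are therefore no test of a link to its gain. The Fosl2 start and the Fos distal stretches held 1 short CRE each (16.5% of all peaks). All 3 stretches were the central 300 bases of their peaks, as were the stretches behind these shares. None of the 3 had a CArG box (1.42%) or a full CRE (0.985%). At 72.0%, 51.3% and 41.0% their GC content differed widely, in the order given.

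The Fos distal peak, chr12:85436080-85436614, lies at the promoter of the gene Gm40477, with its centre 37.5 kb from the Fos start. It held 36.0 to 57.4 in controls (median 44.7), 79.7 and 70.3 after 1 h of BDNF, 70.6 and 36.4 after 6 h, and 68.8 and 48.3 after 10 h. Under KCl it was 72.2 and 65.6, 102 and 90.9, and 89.1 and 68.2, above every control at each time. Gains were called at 1 h of BDNF (0.74 ± 0.22, adjusted p = 0.0119) and at 1 h (0.62 ± 0.22, 0.0843), 6 h (1.12 ± 0.23, 0.000548) and 10 h (0.81 ± 0.23, 0.0178) of KCl, and KCl was above BDNF at 6 h (0.91 ± 0.28, 0.0704).

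Among the 9 comparisons this peak was thus called in 5, and its late KCl values ran beside a Fos mRNA that stayed high under KCl, though the link between them was not tested. The gain under BDNF was lost without the library A of BDNF 1 h (0.66, adjusted p = 0.184), that of KCl 6 h without the library A of KCl 6 h (1.02, 0.149) and that of KCl 10 h without the library A of KCl 10 h (0.60, 0.387). At 1 h of KCl the call was lost without either KCl 1 h library (0.55 and 0.69) or any of 3 controls (adjusted p of 0.113 to 0.130). It was also lost against the controls of 1 h alone (0.61, adjusted p = 0.256). The difference between KCl and BDNF at 6 h was lost without the BDNF 6 h library B (0.46) or the KCl 6 h library A (0.80) or B (0.97).

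The Fosl2 distal peak, chr5:32035751-32036129, lies inside Babam2 and outside the 50 kb window, and was taken up after its values were seen. It had only 1.2 to 7.79 scaled counts in controls (deposited counts of 1 to 9), against 37.4 and 69.7, 28.9 and 34.4, and 48.0 and 33.3 at 1, 6 and 10 h of BDNF. With KCl it had 23.2 and 12.9, 19.0 and 2.55, and 18.5 and 18.3. It was gained under BDNF by 3.38 ± 0.39, 2.62 ± 0.41 and 2.96 ± 0.43 (adjusted p = 8.74e-13, 1.57e-07 and 3.27e-08) and under KCl by 1.77 ± 0.44, 1.42 ± 0.51 and 1.83 ± 0.46 (0.00720, 0.0860 and 0.00561).

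All 6 BDNF libraries lay above all controls, as did 5 of the 6 KCl libraries, the exception being the shallow KCl 6 h library B with a deposited count of 1. The lowest count over all peaks and libraries was 1, held by 14047 values, so a 1 may stand for no read. Without the KCl 6 h library A the KCl 6 h value stood at -0.96. Its call was lost without any of 5 other libraries as well (1.25 to 1.40). Against the controls of 6 h alone it was lost too (1.44, adjusted p = 0.258). The KCl 10 h gain was lost against the controls of 10 h alone (1.74, 0.126), and without the KCl 1 h library A the 1 h gain was 1.33 (0.252). KCl was below BDNF at 1 h (-1.61 ± 0.44, 0.00751), a call lost without the BDNF 1 h library B (-1.07, 0.309) or the KCl 1 h library B (-1.2, 0.241). The peak stayed open at 6 h and 10 h of BDNF, when Fosl2 mRNA was at the control level. The start nearest to the peak is one of Babam2, and a link of the peak to either gene was not tested.

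The remaining called peaks within 50 kb are named because they were called. A peak at -5.79 kb from the Fos start, with deposited counts of 1 to 38, was gained after 1 h of BDNF by 1.07 (adjusted p = 0.0894), a call lost on leaving out any of 7 libraries. A peak 13.0 kb from the nearest Fos start was gained after 1 h of BDNF (0.86 ± 0.31, adjusted p = 0.0419) and lower under KCl than BDNF at 1 h (-0.93 ± 0.38, 0.0998), and both calls were lost without either BDNF 1 h library. The other 3 peaks were 1 18.4 kb upstream of Fos, higher under KCl than BDNF at 6 h (0.45, lost with TMM scaling at 0.27), 1 at the Rtn2 promoter near Fosb, gained at 6 h of BDNF (0.48, lost with TMM scaling at 0.45), and 1 at the Cfl1 promoter near Fosl1, closing at 10 h of BDNF (-0.86 ± 0.21, 0.00165) and higher under KCl than BDNF then (0.92, 0.0304, lost without either BDNF 10 h library or the KCl 10 h library B).

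**Figure D5:**
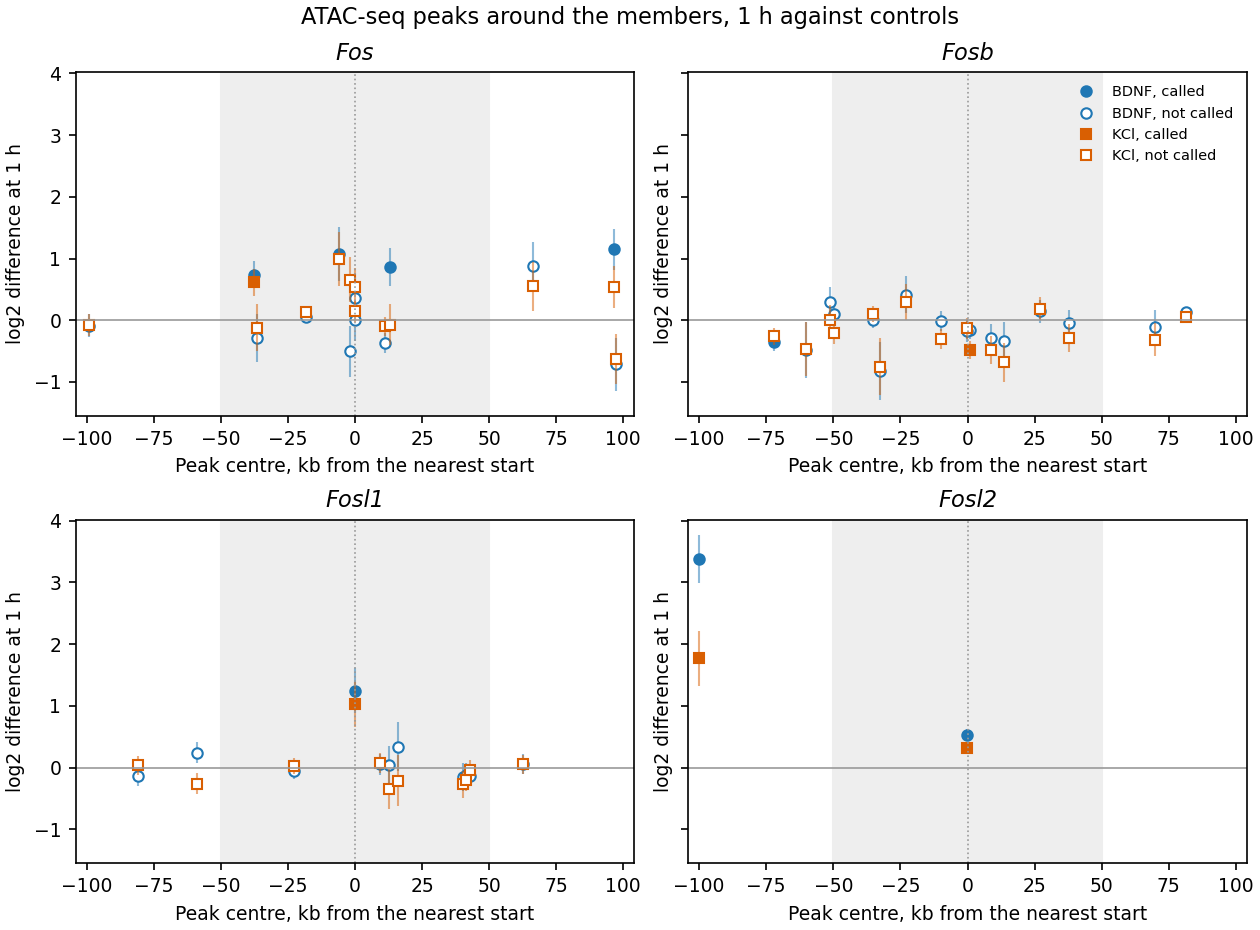
The log2 difference of accessibility from controls after 1 h of BDNF or KCl (bars are SE) against the distance of the peak centre from the nearest start of the member in kb, with grey for the 50 kb window and filled symbols for called peaks. The only filled symbols at the starts themselves were those of Fosl1 (1.24 and 1.03) and Fosl2 (0.53 and 0.31). The peak inside Fosb, near its start but not at it, was filled and lower than controls (-0.48 with KCl).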

How the data were processed

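RNA-seq and ATAC-seq were analysed in 18 libraries each, 2 in each of 9 groups taken from the sample labels. For RNA, the authors trimmed reads with Trimmomatic, aligned them with TopHat2, counted them over GENCODE M16 genes and divided the counts by DESeq2 size factors, and the deposited values are this normalised signal. Which gene counter was used, and whether it used strand, is not given in the sources used here. Deposited values stepped by whole reads, and 100% of them gave whole reads (tolerance 0.01) in all 18 columns. For ATAC, the authors aligned reads with Bowtie2 to mm10, called peaks with MACS2 and deposited raw read counts over 58177 consensus peaks built with DiffBind, with 1 as the lowest count. Every sample column was used (0 left out). Columns with the authors' own fold changes and p-values were not used.

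Symbols were found for 26203 of 26709 genes. RNA was tested with limma 3.58.1 (trend, robust) on log2(signal + 1) over genes with a mean of at least 10, all controls forming 1 group, and ATAC with edgeR 4.0.16 (quasi-likelihood, LOESS offsets) over peaks with a mean count of at least 10. A difference was called where the p adjusted by Benjamini-Hochberg was below 0.1. An SE of an ATAC difference is the difference divided by the root of its F. Alternatives were other pseudocounts (0.5 and 5), filters, scalings and tests (DESeq2 1.42.0), controls of the same time, and each library left out in turn. R 4.3.3, Python 3.11.15, pysam 0.24.0 and matplotlib 3.10.9 were used, and the code was tested on simulated data. Sequences and positions are from RefSeq (GRCm38.p6) and GENCODE M21, both on mm10 coordinates. Counting depth limits low values, and the tests cover the spread between libraries.

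The members and all gene lists were chosen with earlier results of these data known. From each list the 3 genes with the largest absolute log2 difference from controls in any comparison were named. Peaks were named where they overlapped a member's promoter (1000 bp before to 100 bp after a start) or, 2 per member, had the smallest joint p within 50 kb, and others because they were called.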

Additional observations from a re-analysis of the deposited data

Results flagged for a closer look

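The change with time differed between KCl and BDNF for all 4 members from 1 h to 6 h and for 3 of the 4 from 1 h to 10 h, by the test of that difference itself (limma, interaction of stimulus and time, 2 libraries per group), in tests that called 48.1% and 42.2% of all genes. From 1 h to 6 h the log2 change under KCl exceeded that under BDNF by 2.70 for Fosb, 2.31 for Fosl2, 2.26 for Fos and 0.77 for Fosl1. From 1 h to 10 h it did so by 2.14 for Fosl2, 1.39 for Fos and 0.67 for Fosl1, and Fosb was not called (0.54, adjusted p = 0.294). By 10 h of BDNF Fosb was at the control level, and Fosl1 had no called rise after 1 h of KCl. The last Fosl1 call was lost without any of 4 single libraries (0.54 to 0.61) and with DESeq2 on the recovered reads (0.64). Among the 6 controls none of the 4 members and 11 peaks examined held a library that stood apart by Dixon's criterion.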

How the results depend on the processing

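The number of members called was within 1.5 times of that reported under each pseudocount, filter, scaling, count test and set of controls tried, and leaving out a library moved it further only for BDNF at 10 h (1 to 2), elsewhere by at most 1 member. On the recovered reads edgeR called 6430 genes and DESeq2 5759 genes after 1 h of BDNF (limma 6546), and 8861 and 8127 after 1 h of KCl (8863). Values near 0 turned in sign. Fosb at 6 h of BDNF was 0.065 with edgeR and 0.070 with DESeq2 and -0.097 to 0.12 without single libraries, and at 10 h it was -0.069 against controls of the same time and -0.23 to 0.47 without single libraries. Fosl1 at 10 h of BDNF ranged from -0.044 to 0.22 and its change from 6 h to 10 h of KCl from -0.015 to 0.25. From 6 h to 10 h of BDNF Fos ranged from -0.11 to 0.14 and Fosb from -0.23 to 0.48. Fosl2 ranged from -0.41 to 0.37 between 1 h and 6 h of KCl and from -0.75 to 0.029 between 1 h and 10 h, with either KCl 1 h library deciding. Between controls of 6 h and 1 h Fosl2 was -0.0027 with TMM, -0.0075 with edgeR and -0.11 to 0.13 without single libraries, and between 10 h and 1 h Fos was -0.59 to 0.17 and Fosl2 -0.21 to 0.12. The distal Fosl2 peak at 6 h of KCl ranged from -0.96 to 1.89. The Fos to Fosb ratio was -0.64 to -0.47. The causes were not tested.

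Counts of called peaks moved more. In a window of 100 kb they were 8 after 1 h of BDNF, 3 after 10 h of BDNF, and 2 each at 6 h and 10 h of KCl and for KCl against BDNF at 1 h and 10 h. At an adjusted p below 0.01 there were 2 after 1 h of BDNF, and 0 at 6 h of BDNF, at 1 h and 10 h of KCl and for KCl against BDNF at 1, 6 and 10 h. With TMM scaling 0 were called at 6 h of BDNF, 5 at 10 h of KCl, and 0 and 1 for KCl against BDNF at 1 h and 6 h. With DESeq2 size factors the counts were 1 and 2 at 6 h and 10 h of BDNF, 7 at 10 h of KCl and 1 for KCl against BDNF at 6 h. The DESeq2 test gave 1 and 2 at 6 h and 10 h of BDNF, 2 and 5 at 1 h and 10 h of KCl, and 1 for KCl against BDNF at 6 h. Controls of the same time gave 3 and 1 at 1 h and 6 h of BDNF and 2 at 1 h of KCl. Without single libraries the ranges were 2 to 5, 0 to 2 and 1 to 2 at 1, 6 and 10 h of BDNF, 0 to 4, 0 to 2 and 0 to 2 for KCl, and 0 to 2, 0 to 2 and 0 to 1 for KCl against BDNF.

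Each RNA column name ends in A or B, letters that no label explains. Over 36 pairs of groups the A minus B deviations correlated at -0.315 to 0.418 (median 0.0649, 13 over 0.1). These values do not settle whether the letters pair the libraries. With the replicate block 6705 genes were called after 1 h of BDNF, and 6546 without it. Among members the one call that changed was Fosl2 from 1 h to 10 h of KCl (-0.36, adjusted p = 0.0991 by limma). For ATAC no paired fit was possible, because its columns carry only the group.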
